A study of Mus musculus with 16 samples.

Results

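The semaphorin system of olfactory axons was described through 10 listed genes, the neuropilins Nrp1 and Nrp2, the plexins Plxna1, Plxna2, Plxna3, Plxna4 and Plxnc1, and the semaphorins Sema3a, Sema3f and Sema7a. Every probeset annotated with 1 of these symbols was taken, which gave 9 probesets for 9 genes out of 22206 gene probesets on the array. Nrp1 was not analysed here. The cells came from the olfactory mucosa of S100a5-tauGFP mice, in which green fluorescent protein (GFP) reports S100a5, a calcium-binding protein gene whose expression in olfactory sensory neurons depends on their activity. All 24 mice, males and females of 7 to 12 weeks, carried the reporter and were kept singly for 40 h in clean air (3.1 L/min). Pulses of 10 s, once every 20 min, began after 26 h. The 4 groups, of 4 Clariom S arrays each, were GFP+ cells of mice given the odorant, GFP- cells of mice given the odorant, GFP+ cells of mice given vehicle (filtered air) and GFP- cells of mice given vehicle. Sample labels give bourgeonal and the series title gives indole as the odorant, and which was used could not be settled. Each array held RNA of sorted cells pooled from 3 mice, and the GFP+ and GFP- arrays of the same treatment and number were taken to come from 1 of 8 pools, which follows from the number of mice and is not stated outright.

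Semaphorins are guidance cues that steer growing axons, and plexins are the receptors that carry their signal into the cell. The secreted class 3 semaphorins bind neuropilins, which lack a signalling domain of their own and work in a complex with class A plexins. Sema3a acts mainly through Nrp1 and Sema3f mainly through Nrp2. In the olfactory nerve, axons sort by their neuropilin levels on the way to the bulb, and cAMP signals from the odorant receptors help to set the level of Nrp1. Sema7a differs in being anchored to the membrane by a lipid, with Plxnc1 as a receptor, and in olfactory axons its expression depends on activity.

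Values are log2 probeset signals as deposited, so that a difference of 1 is a change of 2 times. A probeset was taken as above background on an array when it exceeded the 95th percentile of 23 antigenomic control probesets of that array, a level of 6.57 to 6.87. S100a5 was higher in GFP+ cells with the odorant (2.21-fold, adjusted p = 0.00247) and with vehicle (1.91-fold, adjusted p = 0.00236). Kirrel2 was higher in GFP+ cells with vehicle (3.03-fold, adjusted p = 0.000102). With the odorant its groups overlapped and the difference did not pass (2.09-fold, adjusted p = 0.156). Mature neuron markers (8 genes) averaged between 15.91 and 16.1 per array in GFP+ cells and between 15.82 and 16.04 in GFP- cells. Of these, Cngb1 was at background in all 4 groups. Omp, which marks these neurons, was between 18.53 and 18.75 on every array. Immature neuron markers averaged between 10.57 and 10.85 in GFP+ cells, where Gng8 and Nhlh1 were at background, and between 12.45 and 12.94 in GFP- cells. Neutrophil markers averaged between 5.26 and 7.09 in GFP+ cells and between 13.48 and 15.94 in GFP- cells, and all 5 measured were lower in GFP+ cells with either treatment. The pools numbered 4 of both treatments had Eif2s3y, a Y-linked gene, at 2.63 to 3.41, against 9.95 to 11.17 in the other pools.

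GFP+ cells were set against GFP- cells, with the odorant and with vehicle, to ask which of the genes differ between cells with and without the activity reporter. Sema7a was higher in GFP+ cells with either treatment (1.59-fold with the odorant, 1.37-fold with vehicle). Sema3a was 1.9-fold lower in GFP+ cells with the odorant. With vehicle, Plxna3 was 2.06-fold and Nrp2 1.61-fold higher in GFP+ cells. With the odorant, limma called 1 of 9 genes higher and 1 lower, with 3 of 9 at an unadjusted p under 0.05, where 11.4% of all probesets were called (3.57% higher, 7.84% lower) and 22.2% had such an unadjusted p. With vehicle, 3 of 9 were called higher and 0 lower, with 4 of 9 at an unadjusted p under 0.05, where 17.7% of all probesets were called (7.76% higher, 9.97% lower) and 30.7% had such an unadjusted p. With the pool as a block, the vehicle fit called 2 higher (Nrp2 and Plxna3) and 2 lower (Sema3a and Plxnc1), without Sema7a. The median difference of the 9 genes was 0.24 with the odorant and 0.183 with vehicle, beside 0.102 and 0.0818 over all probesets. Because these are sorted populations of many cells, fewer cells of a type and less RNA per cell cannot be told apart.

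The 4 genes called in at least 1 of these comparisons are shown with their promoter windows, 250 bases before to 50 bases after the annotated start, from RefSeq on GRCm38.p6, where 7 of the 10 listed genes had an entry. Capitals mark TGACG, a cAMP response element half-site, the only motif searched that occurred in these windows.
Sema7a (chr9:57939862-57940161, + strand): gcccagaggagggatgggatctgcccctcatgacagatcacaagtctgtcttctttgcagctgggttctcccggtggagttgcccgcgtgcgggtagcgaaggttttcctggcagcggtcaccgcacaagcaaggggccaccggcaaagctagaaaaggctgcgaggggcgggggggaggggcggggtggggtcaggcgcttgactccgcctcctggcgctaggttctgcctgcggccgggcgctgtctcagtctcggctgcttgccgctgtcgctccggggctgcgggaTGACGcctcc
Sema3a (chr5:13396534-13396833, + strand): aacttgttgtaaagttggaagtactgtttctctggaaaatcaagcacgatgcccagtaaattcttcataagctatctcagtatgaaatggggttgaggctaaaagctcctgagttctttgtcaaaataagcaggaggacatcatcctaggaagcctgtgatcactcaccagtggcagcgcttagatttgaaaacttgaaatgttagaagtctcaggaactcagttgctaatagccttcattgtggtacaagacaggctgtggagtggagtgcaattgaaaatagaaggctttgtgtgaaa
Plxna3 (chrX:74328816-74329115, + strand): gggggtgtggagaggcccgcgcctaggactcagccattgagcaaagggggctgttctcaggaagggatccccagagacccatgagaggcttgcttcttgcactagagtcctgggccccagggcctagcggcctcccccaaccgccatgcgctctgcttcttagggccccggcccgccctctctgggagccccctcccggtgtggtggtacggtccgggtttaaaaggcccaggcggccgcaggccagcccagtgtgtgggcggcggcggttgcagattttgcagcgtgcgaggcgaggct
Nrp2 (chr1:62703067-62703366, + strand): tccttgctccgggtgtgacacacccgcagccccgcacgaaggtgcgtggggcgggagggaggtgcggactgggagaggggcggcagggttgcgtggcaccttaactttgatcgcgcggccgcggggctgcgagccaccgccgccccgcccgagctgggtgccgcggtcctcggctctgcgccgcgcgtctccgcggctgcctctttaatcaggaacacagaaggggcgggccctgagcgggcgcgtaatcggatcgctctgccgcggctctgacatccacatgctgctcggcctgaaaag
The windows of Sema7a, Plxna3 and Nrp2 were rich in G and C (67.3%, 67.7% and 70.7%), and that of Sema3a was not (41.3%). Both strands were searched for TGACG, for the full cAMP response element TGACGTCA, which contains it, for the Ebf (olf-1) site and for the homeodomain site TAATTA. Sema7a held 1 TGACG, which began at base 41 after the start. These motifs occurred in 20.8%, 1.79%, 0.904% and 5.29% of all 32851 windows, so that a single TGACG is common.

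Sema7a (probeset TC0900000720.mm.2), the membrane-anchored ligand, had signals of 14.00, 14.13, 13.79 and 14.00 in GFP+ cells with the odorant, against 13.39, 13.32, 13.32 and 13.22 in GFP- cells with the odorant. All 4 GFP+ arrays lay above all 4 GFP- arrays, and the difference was 0.67 (SE 0.137, adjusted p = 0.00725). With vehicle it had 13.86, 13.96, 14.11 and 13.97 in GFP+ cells, against 13.50, 13.65, 13.49 and 13.44 in GFP- cells. The groups again did not overlap, and the difference was 0.46 (SE 0.127, adjusted p = 0.0313). Within pools, GFP+ exceeded GFP- cells by 0.47 to 0.81 with the odorant and by 0.32 to 0.61 with vehicle. With the pool as a block in the fit, the vehicle difference had an adjusted p of 0.0595. That call was also lost when any 1 vehicle pool was left out (difference 0.403 to 0.501, adjusted p = 0.0975 to 0.122), and the odorant call was lost without odorant pool 4 (difference 0.63, adjusted p = 0.0647).

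Sema3a (probeset TC0500000084.mm.2), the secreted ligand of Nrp1, ran the other way. Its signals were 7.38, 7.03, 7.20 and 7.5 in GFP+ cells with the odorant, against 8.42, 8.41, 7.92 and 8.06 in GFP- cells with the odorant. Every GFP+ array was below every GFP- array, with a difference of -0.93 (SE 0.174, adjusted p = 0.00422) that stayed called when any 1 odorant pool was left out (adjusted p = 0.0131 to 0.0374). With vehicle, Sema3a had 6.97, 7.22, 6.77 and 8.0 in GFP+ cells, against 7.32, 7.90, 7.72 and 8.57 in GFP- cells. These groups overlapped because pool 4, also the vehicle pool with low Eif2s3y, was the highest in both fractions, and the difference of -0.64 (SE 0.308, adjusted p = 0.189) was not called. Within every vehicle pool GFP+ was the lower fraction, by 0.35 to 0.96, so that the fit with the pool as a block called it (SE 0.151, adjusted p = 0.0273). The part of the makeup of pool 4 in this was not tested. The GFP+ signals were close to the background level, and 16 of 16 arrays exceeded it.

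Sema3f (probeset TC0900003042.mm.2), the secreted ligand of Nrp2, varied the least of the 9 probesets, between 9.44 and 9.99 over the 16 arrays. It averaged 9.72 ± 0.178 in GFP+ cells and 9.64 ± 0.148 in GFP- cells with the odorant (SD, n = 4 each). With vehicle it averaged 9.78 ± 0.157 in GFP+ cells and 9.60 ± 0.119 in GFP- cells. Neither difference was called, and the 95% intervals were -0.25 to 0.41 with the odorant and -0.12 to 0.49 with vehicle.

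Among the receptors, Nrp2 (probeset TC0100000509.mm.2), the ligand-binding partner for Sema3f, had signals of 11.40, 11.81, 11.34 and 11.22 in GFP+ cells with the odorant, against 10.95, 11.40, 11.25 and 11.21 in GFP- cells with the odorant. The groups overlapped, and the difference of 0.24 (SE 0.172, 95% interval -0.14 to 0.62, adjusted p = 0.462) was not called. In odorant pool 4 the fractions differed by 0.01, the smallest of the 8 pool differences. With vehicle, Nrp2 had 11.38, 11.59, 12.11 and 11.24 in GFP+ cells, against 10.72, 10.91, 11.08 and 10.84 in GFP- cells. Here the groups did not overlap, and the difference was 0.69 (SE 0.194, adjusted p = 0.0329). That call was lost without vehicle pool 1 (difference 0.7, adjusted p = 0.105) or pool 2 (difference 0.691, adjusted p = 0.128), which left the difference about as large, and after quantile normalization (difference 0.618, adjusted p = 0.0522).

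Plxna3 (probeset TC0X00000712.mm.2), a class A plexin that signals for class 3 semaphorins, had 11.87, 11.69, 11.52 and 11.53 in GFP+ cells with the odorant, against 10.51, 11.28, 11.18 and 11.27 in GFP- cells with the odorant. The groups did not overlap, but the difference of 0.59 (SE 0.196, 95% interval 0.16 to 1.02) had an adjusted p of 0.0866. Most of its size came from pool 1, whose fractions differed by 1.36, against 0.26 to 0.40 in the other odorant pools, and without that pool it was 0.334 (adjusted p = 0.313). In the GFP- array of pool 1, neutrophil markers averaged 15.79 (13.48 to 13.95 in the other odorant GFP- arrays) and sustentacular cell markers 11.61 (10.15 to 10.48). Their part in the low Plxna3 value of that array was not tested. With vehicle, Plxna3 had 11.82, 11.27, 11.58 and 11.80 in GFP+ cells, against 10.75, 10.49, 10.77 and 10.28 in GFP- cells. The lowest GFP+ array was at 11.27 and the highest GFP- array at 10.77, and the difference was 1.04 (SE 0.175, adjusted p = 0.00189). It stayed called when any 1 vehicle pool was left out (difference 0.885 to 1.13).

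Plxna1 (probeset TC0600002697.mm.2) and Plxna4 (probeset TC0600002024.mm.2), class A plexins that pair with neuropilins, were well above background and overlapped between the fractions. Plxna1 ranged from 12.94 to 13.80 in GFP+ cells and from 13.16 to 14.09 in GFP- cells with the odorant, and with vehicle from 13.13 to 13.62 in GFP+ cells and from 12.93 to 13.70 in GFP- cells. Its differences were -0.27 (95% interval -0.80 to 0.26) with the odorant and 0.12 (-0.31 to 0.55) with vehicle, and GFP+ was the lower fraction in 6 of 8 pools. Plxna4 ranged from 12.72 to 13.37 in GFP+ cells and from 12.36 to 13.38 in GFP- cells with the odorant, and with vehicle from 12.94 to 13.65 in GFP+ cells and from 12.55 to 13.48 in GFP- cells. Its differences were 0.29 (-0.22 to 0.79) and 0.33 (-0.17 to 0.84), and GFP+ was the higher fraction in 5 of 8 pools. For Plxna4 both intervals include the Sema7a difference of the same treatment (0.67 with the odorant, 0.46 with vehicle). For Plxna1, and for Sema3f (-0.12 to 0.49), the vehicle interval includes the Sema7a difference and the odorant interval does not. Plxna2 (probeset TC0100001877.mm.2), another class A plexin, was below background on 16 of 16 arrays, at 4.34 to 5.92, and no fold is given.

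Plxnc1 (probeset TC1000002714.mm.2), the receptor of Sema7a, is also known from leukocytes. It had 8.83, 8.08, 8.26 and 7.93 in GFP+ cells with the odorant, against 8.44, 9.14, 8.41 and 8.91 in GFP- cells with the odorant. The groups overlapped, and the difference of -0.45 (SE 0.235, adjusted p = 0.295) was not called. Odorant pool 1 was the 1 pool of 8 with the higher value in GFP+ cells, and without it the difference was -0.734 (adjusted p = 0.0919). Without odorant pool 2 or pool 4 it was -0.249 and -0.274 (adjusted p = 0.66 and 0.666). With vehicle, Plxnc1 had 8.01, 8.42, 8.52 and 7.71 in GFP+ cells, against 9.16, 9.79, 9.40 and 8.25 in GFP- cells. Pool 4 was the lowest in both fractions and made the groups overlap, and the difference of -0.99 (SE 0.309) had an adjusted p of 0.0513. The fit with the pool as a block called it lower (SE 0.172, adjusted p = 0.00791), as did the fit without vehicle pool 4 (difference -1.13, adjusted p = 0.00894). Neutrophil markers were lower in GFP+ cells in the same comparisons, with a median difference of -8.79 with the odorant and -9.11 with vehicle, and their part in the Plxnc1 difference was not tested.

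**Figure D1:**
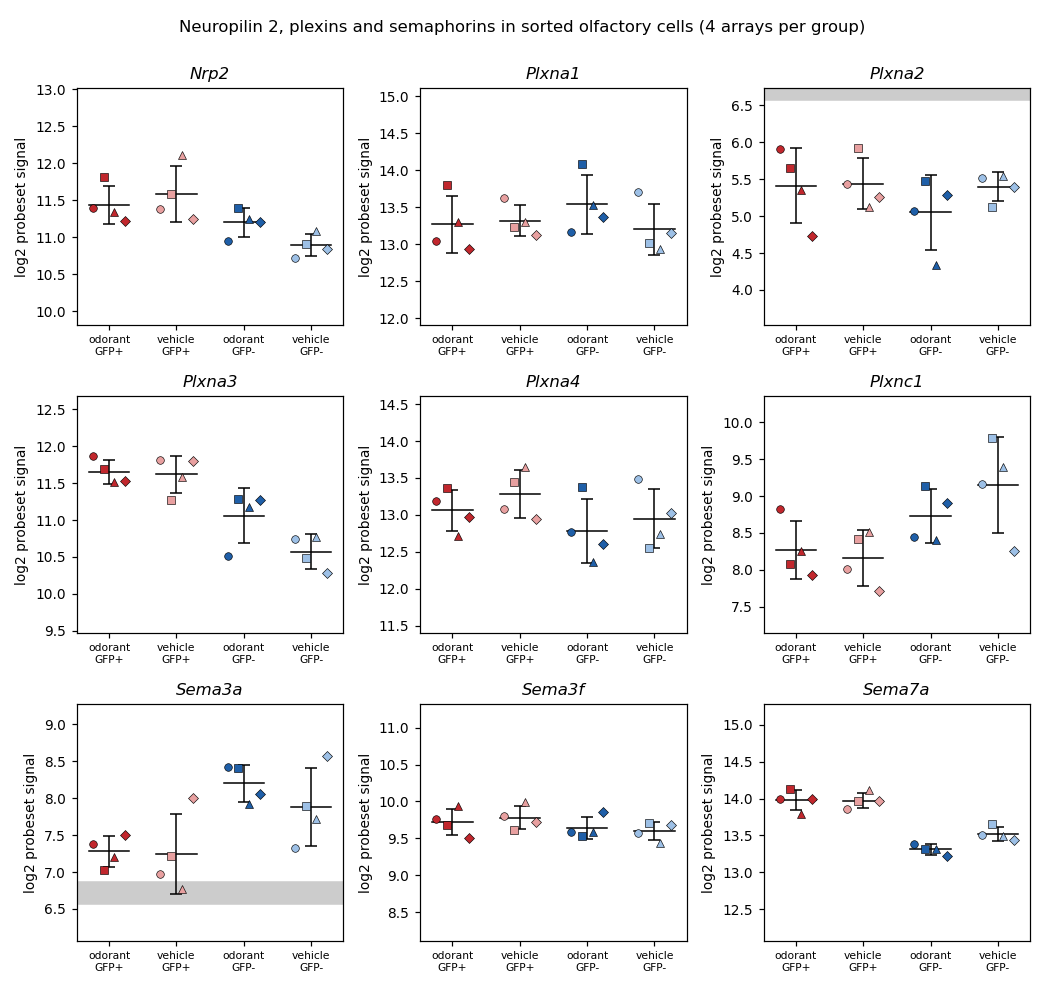
Log2 probeset signal of the 9 genes in the 4 groups, with 1 point per array (circle, square, triangle and diamond for pools 1 to 4), the mean and SD as lines and the range of the background level as a grey band. Sema7a lies between 13.79 and 14.13 in GFP+ cells and between 13.22 and 13.65 in GFP- cells, whereas Plxna1, Plxna4 and Sema3f overlap between the fractions.

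Over the 8 pools, Nrp2, Plxna3 and Sema7a were higher in GFP+ than in GFP- cells in 8 of 8 and Sema3a was lower in 8 of 8. These are 4 of 9 genes, and 20.1% of all probesets were on 1 side in every pool (10.1% higher, 10.1% lower). Without overlap between the groups were 3 of 9 genes with the odorant, Plxna3 and Sema7a (higher) and Sema3a (lower), where 16.9% of all probesets did not overlap. With vehicle these were Nrp2, Plxna3 and Sema7a (all higher), where 22.9% did not overlap. Calls over all probesets depended on scaling. The share of calls that were higher in GFP+ cells was 31.3% with the odorant as deposited, 43.2% after quantile normalization and 83.6% after subtracting each array's median, and with vehicle 43.8%, 55.6% and 86.0%. Subtracting medians raised the median of all probesets from 0.102 to 0.417 with the odorant and from 0.0818 to 0.445 with vehicle, and the 9 genes moved with it. Sema7a (0.985 and 0.819) and Plxna3 (0.907 and 1.41) then still exceeded that median, and Sema3a was still the lower (-0.61 and -0.277).

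**Figure D2:**
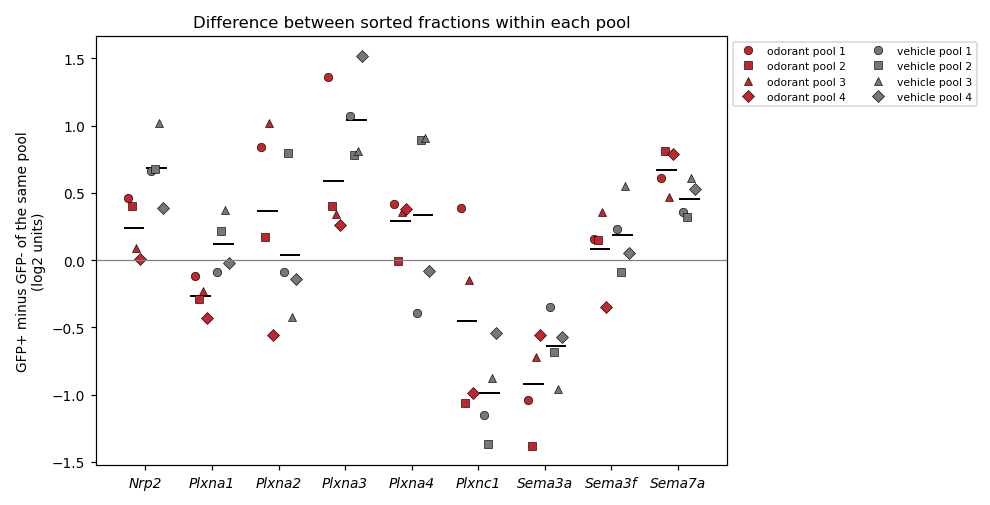
GFP+ minus GFP- signal within each pool (log2 units) for the 9 genes, odorant pools in red and vehicle pools in grey, with the mean of each treatment as a line. All 8 pools lie above 0 for Nrp2, Plxna3 and Sema7a and below 0 for Sema3a, and the Plxna3 values range from 0.26 to 1.52.

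Odorant was set against vehicle within each fraction to ask whether exposure changed these genes. In GFP+ cells limma called 0 of 9 genes, with 0 at an unadjusted p under 0.05, where 0.0% of all probesets were called and 3.82% had an unadjusted p under 0.05. Sema7a had nearly the same mean with the odorant (13.98 ± 0.141) and with vehicle (13.97 ± 0.102), a difference of 0.01 with a 95% interval of -0.29 to 0.30. Plxna3 likewise averaged 11.65 ± 0.164 with the odorant and 11.62 ± 0.253 with vehicle (difference 0.03, -0.32 to 0.39). The other 7 genes had differences between -0.22 (Plxna4) and 0.11 (Plxnc1), and for Sema3a the interval was -0.50 to 0.58. All adjusted p values were 0.999, and the groups of all 9 genes overlapped, where 2.3% of all probesets did not.

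In GFP- cells limma also called 0 of 9 genes, where 0.0% of all probesets were called and 6.84% had an unadjusted p under 0.05. Plxna3 was the 1 gene of 9 at an unadjusted p under 0.05, at 11.06 ± 0.372 with the odorant and 10.57 ± 0.235 with vehicle (difference 0.49, 95% interval 0.03 to 0.95, adjusted p = 0.708). Nrp2 averaged 11.20 ± 0.191 with the odorant and 10.89 ± 0.15 with vehicle (difference 0.31, -0.03 to 0.66, adjusted p = 0.743). Sema7a had 13.22 to 13.39 with the odorant and 13.44 to 13.65 with vehicle, the 1 gene of 9 whose groups did not overlap, where 4.16% of all probesets did not (difference -0.21, -0.51 to 0.09, adjusted p = 0.776). In the interaction, which tests the odorant effects of GFP+ and GFP- cells for a difference, limma called 0 of 9 genes, with 0 at an unadjusted p under 0.05 (0.0% and 4.92% of all probesets). Estimates were -0.45 for Nrp2 (95% interval -1.0 to 0.10), -0.45 for Plxna3 (-1.01 to 0.11), 0.21 for Sema7a (-0.14 to 0.56) and 0.53 for Plxnc1 (-0.34 to 1.41). The gap between the fractions was smaller with the odorant than with vehicle for Plxna3 and Nrp2, by an amount that the interaction did not call.

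**Figure D3:**
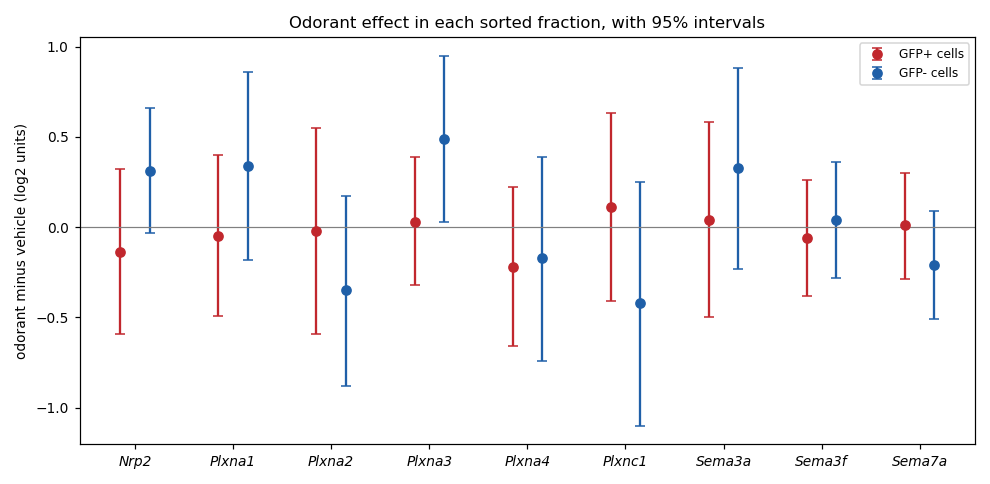
Odorant minus vehicle (log2 units) for the 9 genes in GFP+ cells (red) and GFP- cells (blue), as the fitted difference with its 95% interval. All intervals in GFP+ cells include 0, and in GFP- cells the interval of Plxna3 (0.03 to 0.95) is the 1 that does not.

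Other genes of the pathway were taken in 5 lists. Of 16 other semaphorins measured (of 17 listed), 2 were higher and 1 lower in GFP+ cells with the odorant and 4 higher and 1 lower with vehicle, with medians of 0.182 and 0.00922. Over all probesets 11.4% were called with the odorant (3.57% higher, 7.84% lower) and 17.7% with vehicle (7.76% higher, 9.97% lower), with medians of 0.102 and 0.0818. Sema3e, a secreted ligand of Plxnd1, averaged 11.21 ± 0.244 in GFP+ cells and 10.07 ± 0.247 in GFP- cells with the odorant (2.21-fold, adjusted p = 0.00123). With vehicle Sema3e averaged 11.23 ± 0.237 in GFP+ cells and 9.96 ± 0.236 in GFP- cells (2.41-fold, adjusted p = 0.00048). Sema6c, a transmembrane semaphorin, was also higher with the odorant (1.89-fold, adjusted p = 0.00353) and with vehicle (2.18-fold, adjusted p = 0.00246). Sema4d, the ligand of Plxnb1, averaged 10.49 ± 0.391 in GFP+ cells and 9.94 ± 0.299 in GFP- cells with the odorant (adjusted p = 0.168) and was 2.12-fold higher with vehicle (adjusted p = 0.00208). Sema3b was called lower with vehicle from signals at background in both fractions, so that no fold is given.

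All 4 other plexins were measured, with 1 higher with the odorant and 2 with vehicle, 0 lower in either, and medians of 0.0173 and 0.527. Of all probesets 3.57% were higher with the odorant and 7.76% with vehicle, and 4 genes are too few to set against these shares. Plxnb3, a receptor of class 5 semaphorins, was 1.65-fold higher in GFP+ cells with the odorant (adjusted p = 0.0134) and 2.03-fold higher with vehicle (adjusted p = 0.000624). Plxnb1 averaged 9.05 ± 0.299 in GFP+ cells and 8.90 ± 0.564 in GFP- cells with the odorant (adjusted p = 0.786) and was 1.55-fold higher with vehicle (adjusted p = 0.0254). Plxnd1 and Plxnb2 were not called, with vehicle differences of -0.49 and 0.42.

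Of 15 co-receptors and non-semaphorin ligands of neuropilins measured (of 16 listed), 0 were higher and 5 lower in GFP+ cells with the odorant, beside 3.57% and 7.84% of all probesets. With vehicle 1 was higher and 6 lower, beside 7.76% and 9.97%, and the medians were -0.175 with the odorant and -0.347 with vehicle. Itgb1, an integrin subunit that takes part in Sema7a signalling, averaged 10.76 ± 0.122 in GFP+ cells and 11.56 ± 0.19 in GFP- cells with the odorant (1.74-fold lower, adjusted p = 0.00405) and was 1.51-fold lower with vehicle (adjusted p = 0.00902). Vegfa, the vascular growth factor that binds neuropilins, had a difference of -0.93 with the odorant (adjusted p = 0.0779) and was 2.5-fold lower with vehicle (adjusted p = 0.00284), with 3 of 4 GFP+ arrays above background in each. Cd72, a B cell receptor of Sema4d, was at background in GFP+ cells and at least 1.24-fold lower there with the odorant (adjusted p = 0.000833) and at least 1.34-fold lower with vehicle (adjusted p = 0.0121). Ptk7, with either treatment, and Nrcam, with vehicle, were called lower from signals at background in both fractions. Chl1, the 1 gene called higher with vehicle, was also at background in both. Met was at background in GFP+ cells and at least 1.08-fold lower there with the odorant and at least 1.04-fold with vehicle. Pgf, called lower with the odorant, was near background in GFP- cells too, and no fold is given. Of the 15 probesets, 5 were above background on at least 8 of the 16 arrays. Markers of other cells were lower in GFP+ cells in the same comparisons. Lymphocyte markers (5 of 6 lower with the odorant, 6 of 6 with vehicle) averaged 4.41 to 4.58 in GFP+ cells, with all 6 at background, and 5.51 to 6.4 in GFP- cells, with all 6 at background with the odorant and 3 with vehicle. Microvillar and tuft cell markers (6 of 6 lower in both) averaged 5.53 to 6.05 on GFP+ arrays, against 8.54 to 9.43 on GFP- arrays. Sustentacular cell markers (3 of 6 lower with the odorant, 6 of 6 with vehicle) averaged 7.53 to 9.01 on GFP+ arrays, against 10.15 to 11.61 on GFP- arrays. The part of these cells and of neutrophils in the values of the list was not tested.

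Of 28 signal transducers measured (of 30 listed), 0 were higher and 6 lower with the odorant and 4 were higher and 8 lower with vehicle (medians -0.172 and -0.261). Of all probesets 3.57% were higher and 7.84% lower with the odorant, and 7.76% higher and 9.97% lower with vehicle. The 4 higher with vehicle were Farp2 (1.65-fold), Limk1 (1.57-fold), Arhgef11 (1.68-fold) and Arhgef12 (1.49-fold). Each was above background on 4 of 4 arrays of both fractions. Among the lower calls, Mical1 with the odorant and Dpysl4 and Rnd1 with vehicle were at background in both fractions. Rnd3, lower with both treatments, was above background on 0 of 4 GFP+ arrays with the odorant and 1 of 4 with vehicle. Mical1 with vehicle was above background on 0 of 4 GFP+ and 2 of 4 GFP- arrays, and no fold is given. Dpysl3, a collapsin response mediator protein typical of growing axons, averaged 8.17 ± 0.208 in GFP+ cells and 11.89 ± 0.215 in GFP- cells with the odorant (13.1-fold lower, adjusted p = 1.29e-07). With vehicle it averaged 8.03 ± 0.355 in GFP+ cells and 12.06 ± 0.338 in GFP- cells (16.2-fold lower, adjusted p = 1.1e-06). The small GTPase Rap1b was 1.88-fold lower with the odorant (adjusted p = 0.00739) and 1.79-fold lower with vehicle (adjusted p = 0.00496). Rras, a small GTPase that plexins inactivate, had a difference of -0.76 with the odorant (adjusted p = 0.0756) and was 2.49-fold lower with vehicle (adjusted p = 0.000109). Sh3bp1, a GTPase-activating protein, was 2.01-fold lower with the odorant (adjusted p = 0.00501), with 3 of 4 GFP+ arrays above background, and at least 2.12-fold lower with vehicle (adjusted p = 0.00196), with 1 of 4.

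The cAMP route to axon targeting had 10 genes measured (of 11 listed), with 0 higher and 1 lower with the odorant and 1 of each with vehicle (medians 0.131 and 0.229). These counts are near the shares of all probesets called, 11.4% with the odorant and 17.7% with vehicle. Gnas, the stimulatory G protein subunit of immature olfactory neurons, averaged 7.07 ± 0.605 in GFP+ cells and 10.64 ± 0.531 in GFP- cells with the odorant (11.8-fold lower, adjusted p = 2.15e-05), where 2 of 4 GFP+ arrays were above background. With vehicle it averaged 7.00 ± 0.477 in GFP+ cells and 11.25 ± 0.263 in GFP- cells (19-fold lower, adjusted p = 1.2e-06), where 3 of 4 GFP+ arrays were, so that the size of both folds rests partly on signals at background. Adcy3, the adenylyl cyclase of olfactory cilia, had a difference of 0.23 with the odorant (adjusted p = 0.333) and was 1.33-fold higher with vehicle (adjusted p = 0.0452). The kinase subunits Prkar2a and Prkaca had vehicle differences of 0.42 and 0.45 and did not pass. Immature neuron markers were lower in GFP+ cells in the same comparisons (4 of 8 with the odorant, 5 of 8 with vehicle), and their part in the values of Dpysl3 and Gnas was not tested. Over the 73 probesets of the 5 lists, limma called 16 between the fractions with the odorant and 28 with vehicle, and 0 for odorant against vehicle in either fraction and 0 in the interaction. At an unadjusted p under 0.05 there was 1 in GFP+ cells, 3 in GFP- cells and 1 in the interaction, beside 3.82%, 6.84% and 4.92% of all probesets.

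**Figure D4:**
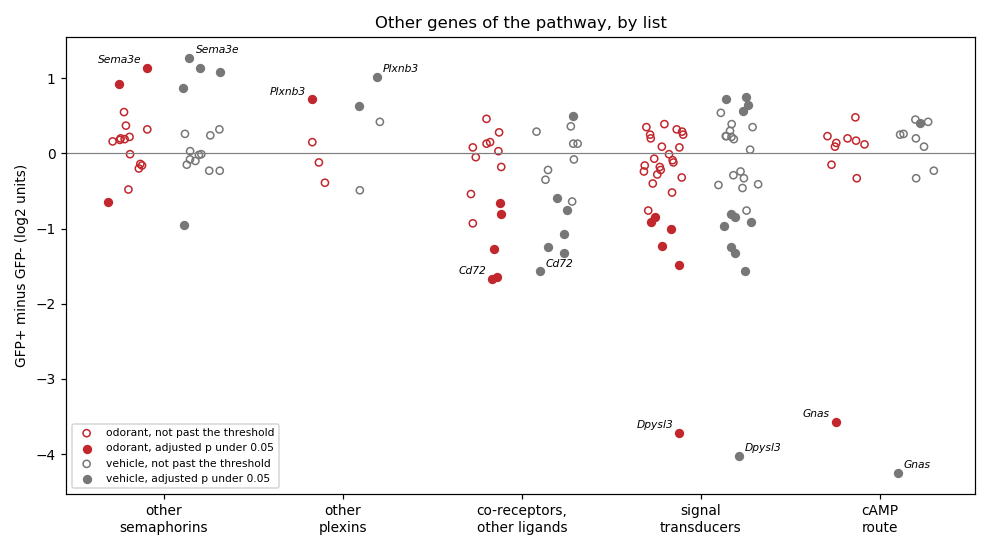
GFP+ minus GFP- differences (log2 units) for each measured gene of the 5 lists, odorant in red and vehicle in grey, with filled points for an adjusted p under 0.05. Dpysl3 (-3.72 and -4.02) and Gnas (-3.57 and -4.25) lie far below the other genes, and Sema3e and Plxnb3 are above 0 with both treatments.

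Covariation among arrays was described after subtracting each group's mean, over 16 arrays that share pools and scaling. Sema3a followed the mean of the macrophage markers (Pearson r = 0.74, Spearman rho = 0.8, r = 0.62 without the 2 arrays farthest from the median of the markers). Of the macrophage markers, Aif1 was at background in every group and Adgre1 in both GFP+ groups. The list averaged 6.14 to 7.23 in GFP+ and 6.51 to 7.71 in GFP- cells with the odorant. With vehicle it averaged 5.9 to 7.51 in GFP+ and 6.64 to 7.18 in GFP- cells. Sema3a followed the olfactory ensheathing glia markers nearly as closely (r = 0.7, rho = 0.7, r = 0.61 without the 2 farthest). Of those glia markers, 4 of 5 measured were at background in every group. Plxnc1 followed the neutrophil markers less closely (r = 0.52, rho = 0.5, r = 0.63 without the 2 farthest). Of these markers, S100a9 and Camp were at background in GFP+ cells with either treatment, and S100a8 with the odorant. Its r was larger in size with globose basal and cell cycle markers (r = 0.64, rho = 0.61, r = 0.47 without the 2 farthest). With immature neuron markers Plxnc1 ran the other way (r = -0.68, rho = -0.7, r = -0.69 without the 2 farthest). Nrp2 ran against S100a5 within groups (r = -0.89, rho = -0.83, r = -0.83 without the 2 farthest), although both were higher in GFP+ cells with vehicle. These pairs were chosen after their values were seen, out of 153 pairs of the 9 genes with 14 marker lists, S100a5, Omp and Kirrel2.

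**Figure D5:**
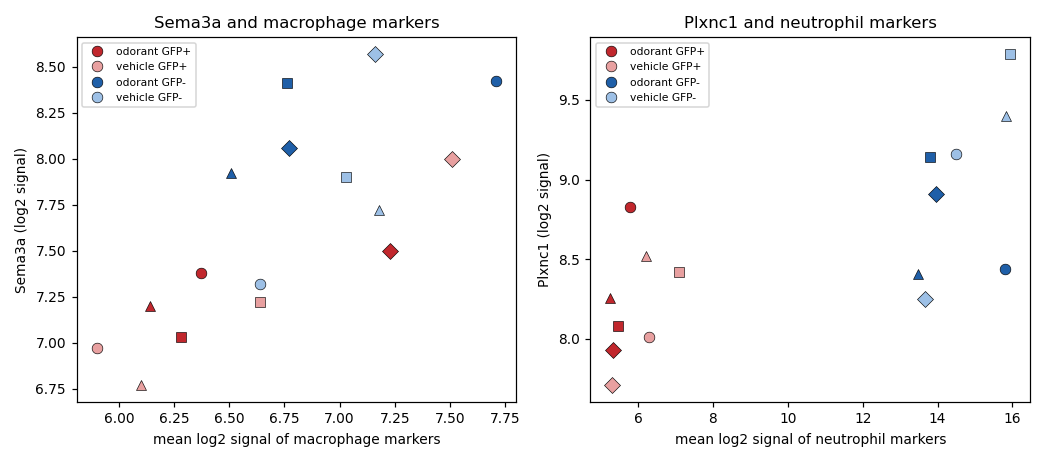
Left, Sema3a against the mean of 5 macrophage markers, and right, Plxnc1 against the mean of 5 neutrophil markers, in log2 signal, with 1 point per array in the colours of the 4 groups and the shapes of the pools. Neutrophil markers lie between 5.26 and 7.09 in GFP+ cells and between 13.48 and 15.94 in GFP- cells, while macrophage markers overlap between the groups.

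The probesets most like each gene were ranked by Pearson r over the 16 arrays among 9952 probesets, group differences included. Closest to Sema7a were the odorant receptor Olfr60 (r = 0.94), at a mean of 14.65 in GFP+ cells and 11.11 in GFP- cells with the odorant, and Inpp5f, a lipid phosphatase (r = 0.94). Plxna3 was closest to Emx2, a homeobox transcription factor of olfactory neurons (r = 0.94), and to Ocrl, a lipid phosphatase (r = 0.94). Nrp2 was closest to Ubqln2 (r = 0.93), Sema3a to Magt1 (r = 0.9), Plxna4 to Igf1r (r = 0.9) and Plxnc1 to Dnm2 (r = 0.9). F13a1, a clotting factor subunit of macrophages and platelets, came next for Plxnc1 (r = 0.85). Its means in GFP+ cells, 5.64 with the odorant and 5.39 with vehicle, were below the background level. Plxna1 (Clmn, r = 0.85) and Sema3f (Mmadhc, r = 0.78) had looser matches.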

How the data were processed

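RNA abundance in sorted cells was measured on 16 Clariom S arrays. The table the authors deposited holds log2 signals per probeset from Affymetrix Expression Console, per the submitters' processing notes, with the version and the normalization not given in the sources used here. No further scaling was applied. Of 28846 probesets, 6640 controls were left out. Of the 22206 others, 19572 carried 1 gene symbol in the platform annotation, 0 several and 2634 none. All 19572 matched a RefSeq gene table, with 0 symbols changed.

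GFP+ was compared with GFP- cells, and odorant with vehicle, on the 8 arrays of each pair of groups, and the interaction on all 16. Fits used limma 3.58.1 (lmFit and eBayes, R 4.3.3), with two-sided p adjusted by Benjamini-Hochberg over 22206 probesets at a threshold of 0.05. Fits were tested on simulated data. Figures were drawn with matplotlib 3.10.9 (Python 3.11.15). Precision is limited by 4 arrays per group.

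With 24 mice and 3 per pool, same-numbered GFP+ and GFP- arrays of a treatment were taken to share a pool. After group means were removed, their correlation across probesets was 0.113 to 0.156 with vehicle and 0.0136 to 0.356 with the odorant. Values with the pool as a replicate block are given where they change a call. Odorant and vehicle numbers mark different mice.

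The genes, lists and motifs were chosen with earlier results of these data known. From each list, the 4 genes with the smallest p in the vehicle comparison of GFP+ with GFP- cells are named. Outside that rule, Met, Nrcam, Chl1, Pgf, Mical1, Dpysl4, Rnd1 and Rnd3 are named, with calls at or near background in GFP+ cells. The 4 signal transducers higher with vehicle are named too. The 2 probesets most like a gene were ranked among probesets above background on at least 8 arrays. Genes in the covariation account, and F13a1, also fall outside any such rule or were picked after values were seen. A fold against a group at background is a lower bound, from the mean of the brighter group and, in the dimmer group, the background level in place of lower values.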

Additional observations from a re-analysis of the deposited data

Results flagged for a closer look

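Each of the 9 genes was checked in each of the 4 groups for an array far from the others, 36 checks in all. Only 1 stood apart, Plxna3 in GFP- cells with the odorant. There the array of pool 1 was at 10.51 and the other arrays at 11.18 to 11.28, and the gap to its nearest neighbour was 0.866 of the range, above Dixon's critical value at the 95% level for 4 samples. Chance gives about 1 such array in 20 groups. The GFP+ array of the same pool was at 11.87, the highest of the odorant GFP+ arrays. Without that pool the Plxna3 difference between the fractions was 0.334, and no cause was tested.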

How the results depend on the processing

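The alternatives were quantile normalization, subtraction of array medians, leaving out dim probesets, limma-trend with robust eBayes, a replicate block, a fit of all 16 arrays and leaving out each replicate. Of 571 differences of the 9 genes under them, 517 kept their direction and side of the threshold, 11 gained and 9 lost the call, and 34 changed direction. With array medians subtracted, 4 of the genes and 9277 probesets were called in GFP+ against GFP- cells with the odorant, and 5 and 12050 with vehicle. The added genes were Nrp2 (0.555) and Plxna3 with the odorant and Plxna4 (0.696) and Sema3f (0.547) with vehicle, because that scaling raised all differences. It turned Plxna1 with the odorant (0.0462) and Sema7a for odorant against vehicle in GFP+ cells (-0.00393). Without dim probesets 1661 were called with the odorant, from fewer tested. Without single replicates, 1 to 2 of the genes and 1932 to 2062 probesets were called with the odorant. With vehicle these were 1 to 3 genes and 2479 to 3002 probesets. For odorant against vehicle in GFP+ cells, 0 to 3 probesets were called without single replicates, the 3 of them without vehicle replicate 4. Plxna3 with the odorant passed in the fit of all 16 arrays (adjusted p = 0.0481). Plxnc1 with vehicle passed without dim probesets (adjusted p = 0.0446), with limma-trend (0.0408) and in the fit of all 16 arrays (0.0253). With the pool as a replicate block the count stayed at 2 genes with the odorant (2700 probesets) and was 4 with vehicle (2 higher, 2 lower, 3919 probesets), and it changed no call but those of Sema7a, Sema3a and Plxnc1 with vehicle. Leaving out single replicates turned these differences, none of them called: Sema3f with the odorant (-0.0119 to 0.223) and Plxna2 with vehicle (-0.217 to 0.19) between fractions; for odorant against vehicle in GFP+ cells Nrp2 (-0.257 to 0.04), Plxna1 (-0.224 to 0.0613), Plxna2 (-0.19 to 0.202), Plxna3 (-0.0798 to 0.101), Sema3a (-0.117 to 0.294), Sema3f (-0.134 to 0.00909), Sema7a (-0.0438 to 0.0692) and Plxnc1 (-0.0775 to 0.229); in GFP- cells Plxna4 (-0.374 to 0.00389) and Sema3f (-0.0305 to 0.0787); and in the interaction Plxna4 (-0.289 to 0.146) and Sema3f (-0.195 to 0.0396). Without the pools numbered 4 of both treatments, 0 of the genes were called for odorant against vehicle or in the interaction. Of all probesets, 3 were called in GFP+ cells, 0 in GFP- cells and 0 in the interaction. Plxna2 (0.144) and Sema7a (-0.00577) in GFP+ cells and Sema3f (-0.00544) in GFP- cells turned. The causes of these changes were not tested beyond what the scaling and the number tested show. Plxna2, below background, has no value without dim probesets.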
